A study of Mus musculus with 24 samples.

Results

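The Lefty1 and Lefty2 locus is a stretch of mouse chromosome 1 that holds the genes of a closely related pair of secreted Nodal antagonists. It was taken as every interval of the deposited ATAC-seq tables whose start lies from 180860000 to 180970000 on chromosome 1 (mm10, the build in the submitters' processing notes). This gave 40 intervals in the table of untreated cells and 39 in the table of inhibitor-treated cells, 79 of 572048 in all. All 79 passed the filter on low values, a value of 10 or more in at least 4 libraries, which left 542628 intervals tested. ATAC-seq counts insertions of a transposase into open chromatin, so a higher value at an interval means more accessible DNA there.

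E14, an established line of mouse embryonic stem cells, was grown on gelatin in serum medium with leukemia inhibitory factor. Wild type cells (WT) and the Smad2 knockout lines Smad2_KO1 and Smad2_KO2 were each sampled untreated (Ctrl) or after 12 hours in 200 nM INK128, an inhibitor of the mTOR kinase (Paused, after the state of developmental arrest that mTOR inhibition is used to mimic). Each of the 6 groups had 4 libraries of 50000 cells. The knockout allele and the way each line was derived are not given in the sources used here, so a difference from WT belongs to a line and may include traits of that line other than Smad2 loss. Nothing in the labels says that the 4 libraries of a group came from separate cultures, and p-values then measure only the spread between these libraries. In bulk cells, fewer cells with an open interval and less opening in each cell cannot be told apart.

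Nodal is a ligand of the TGF-beta family that acts through activin receptors with an EGF-CFC coreceptor such as Tdgf1, and its receptors phosphorylate Smad2 and Smad3, which enter the nucleus with Smad4 and bind DNA with partners such as Foxh1. Lefty1 and Lefty2 are induced by this pathway and encode proteins that bind Nodal or its coreceptor and block signalling, so they form a negative feedback loop. Embryonic stem cells in serum make Nodal and transcribe both Lefty genes. The comparison of the knockout lines with WT therefore asks what accessibility a known target locus of the pathway had without Smad2, with and without the mTOR inhibitor.

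In gene order, genes of the window include the end of Sde2 (a factor of genome maintenance and splicing), the long noncoding RNA gene Gm39714 (chr1:180875512-180885858), Lefty2 (chr1:180893108-180899107), the noncoding genes Gm32199 (chr1:180912117-180914468) and Gm39715 (chr1:180920413-180937698), Lefty1 (chr1:180935022-180938401) and the start of Tmem63a (a mechanically gated ion channel, chr1:180942286-180975106). A pseudogene, Gm18036, lies beside Gm39714. These positions are RefSeq's, from assembly GRCm38.p6. Lefty2 ends 35914 bases before Lefty1 starts, and Gm39715 overlaps the first part of Lefty1. The gene table gives no strand, so "before" and "after" mean lower and higher coordinates, not upstream and downstream.

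The only sequence at hand that touches an interval called in both knockout lines is the promoter of Gm39714, from RefSeq (GRCm38.p6, chr1:180885809-180886108, minus strand). It is shown because 34 of its 300 bases, in capitals, lie in a Ctrl interval 7266 bases before Lefty2 that was lower in both knockout lines, and 17 lie in the matching Paused interval, also lower in both.
Gm39714 promoter: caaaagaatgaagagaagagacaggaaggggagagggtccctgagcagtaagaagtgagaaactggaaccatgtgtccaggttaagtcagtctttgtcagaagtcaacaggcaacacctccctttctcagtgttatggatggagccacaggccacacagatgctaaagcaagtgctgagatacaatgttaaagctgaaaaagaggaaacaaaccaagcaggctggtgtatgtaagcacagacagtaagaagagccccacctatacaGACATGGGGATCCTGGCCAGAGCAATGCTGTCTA
The letters of a Smad box, CAGAC on either strand, occur 2 times in it, from bases 238 and 265 counted from its 5′ end, and 49.6% of the 32851 promoters in the table hold them. The palindrome GTCTAGAC, held by 0.213% of promoters, and the core AATNNACA of Foxh1-type sites, held by 12.2%, have no match in it on either strand. Of the 8 genes of the window named here, 2 have a promoter in the table; the other, Tmem63a, holds CAGAC once, from base 14, and has no match to the longer letters.

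Libraries had 11.77 to 16.53 M reads in intervals in Ctrl and 11.46 to 20.01 M in Paused (M, megareads). In Paused, depth went partly with line. Every Smad2_KO1 library (14.95 to 17.12 M) was deeper than every WT library (11.46 to 14.76 M), and Smad2_KO2 had 13.17 to 20.01 M. Values below are normalized reads per interval, scaled by the authors with 1 factor per library and table, and the locus had between 1 and 606 reads per interval and library in Ctrl and between 4 and 677 in Paused. All 9 stem cell marker genes checked had an accessible interval, with a median of 244.9 normalized reads at the strongest interval in Ctrl, but so did all 4 markers each of primitive endoderm (175.9), mesendoderm (117.0), trophoblast (80.8) and fibroblasts (92.2), so accessibility alone does not define the cell type. No marker had a value of 0 in any library. At the strongest interval, the knockout mean was below the WT mean for 13 of the 16 markers of other cell types in each table, and for 5 of 9 stem cell markers in Ctrl and 8 of 9 in Paused. Of the 16, T (a mesendoderm gene) and Thy1 (a fibroblast gene) were lower in both lines in each table, as was the fibroblast collagen gene Col1a1 in Paused, and 0 were higher. Marker intervals were taken within 1000 bases of the gene. Of the 9 tested intervals assigned to T as the nearest gene, 0 were lower in both lines in either table. Over all tested intervals, 3.2% were lower in both lines in Ctrl and 4.92% in Paused. The stem cell marker Klf4 was higher in both lines in Paused (means of 68.87 in WT and 95.02 in the knockout lines). No other stem cell marker was called in both lines in either table. The fibroblast list summed to 444.3 to 454.0 normalized reads in WT and 365.0 to 414.9 in the knockout lines in Ctrl, and to 588.2 to 704.9 and 487.4 to 562.3 in Paused, without overlap. Within that list, the knockout mean in Paused was above the WT mean at Col1a2 (29.55 against 19.4) and Twist2 (78.88 against 72.51). The mesendoderm sums overlapped, at 365.8 to 472.1 and 345.4 to 452.6 in Ctrl and 406.8 to 581.4 and 415.2 to 477.0 in Paused. Sums of the stem cell, primitive endoderm and trophoblast lists also overlapped in both tables. The part of these changes in the results at the locus was not tested. Smad2_KO1 and Smad2_KO2 were close to each other. In Paused, their libraries numbered 2 differed by no more than sampling noise over all intervals (chi-square per degree of freedom 1.00, against a noise limit of 1.01). The other 7 same-numbered pairs gave 1.02 to 1.27. In Paused, every same-numbered pair (1.00 to 1.07) was closer than any pair of libraries of the same knockout line (1.11 to 1.48). In Ctrl these ranges overlapped (1.02 to 1.27 and 1.11 to 1.43). Whether same-numbered libraries share a source is not given in the labels, so the lines may not be independent replicates of the knockout. Accessibility cannot check the knockout itself. Of the tested intervals assigned to Smad2, 1 of 59 was lower and 0 higher in both lines in Ctrl, and 0 of 55 were lower and 10 higher in Paused (over all tested intervals, 3.2% lower and 3.95% higher in Ctrl, and 4.92% and 9.01% in Paused).

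Summed over the locus, every knockout library had less accessibility than every WT library, with and without INK128. The summed locus was taken as a share of all values in the table, in ppm. In Ctrl it held 209.2, 210.1, 217.0 and 207.2 ppm in the WT libraries. It held 151.2, 154.7, 160.0 and 167.5 ppm in Smad2_KO1 and 151.9, 158.7, 162.9 and 179.7 ppm in Smad2_KO2. The lowest WT library was thus well above the highest knockout library. The means were 210.9 ± 4.27 ppm for WT, 158.3 ± 7.12 ppm (75.1% of WT) for Smad2_KO1 and 163.3 ± 11.9 ppm (77.4%) for Smad2_KO2 (SD, n = 4). In Paused, WT libraries held 239.6 to 243.5 ppm, Smad2_KO1 170.7 to 186.7 ppm and Smad2_KO2 180.1 to 198.7 ppm, again without overlap. The Paused means were 241.1 ± 1.71, 178.7 ± 7.70 (74.1% of WT) and 187.4 ± 8.48 ppm (77.7%; SD, n = 4). Each of these 4 comparisons with WT gave p = 0.0286 in an exact permutation test (two-sided), the smallest that 4 against 4 libraries allow. After Benjamini-Hochberg adjustment over the 8 such tests on the locus sum and on the share of its strongest interval, the value was 0.0571, so none passed 0.05. From the start of Lefty2 to the end of Lefty1 alone, the knockout means were 67.0% and 72.1% of WT in Ctrl and 66.5% and 69.5% in Paused (Smad2_KO1 first, each p = 0.0286, exact permutation test, two-sided).

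**Figure D1:**
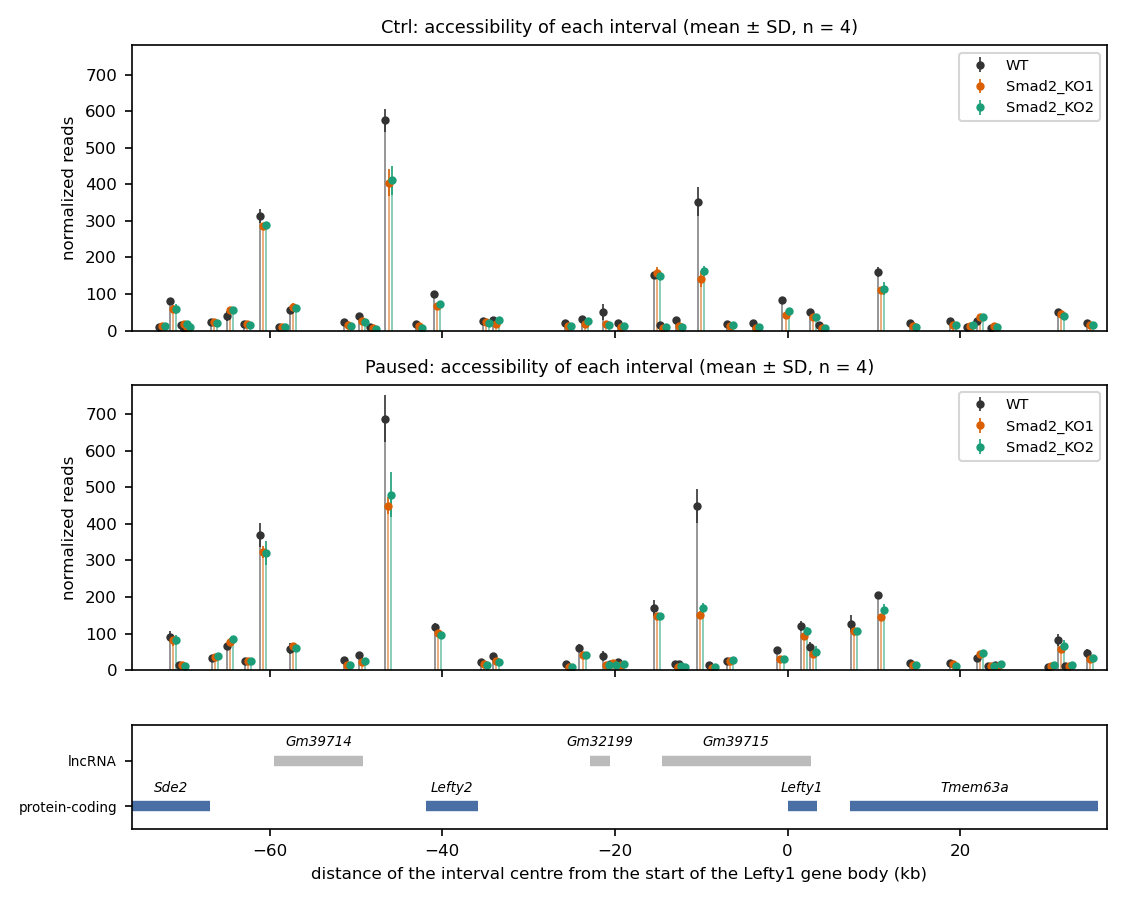
Mean normalized reads of the intervals of the locus, except 1 not reported here (y axis, ± SD over 4 libraries) against the distance of its centre from the start of Lefty1 in kilobases (x axis), for WT, Smad2_KO1 and Smad2_KO2 in Ctrl (top) and Paused (middle), with the named genes of the window below. The tallest WT value is before Lefty2 (575.1 in Ctrl and 688.3 in Paused), and the widest gap between WT and the knockout lines is at the interval about 10 kb before Lefty1.

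Interval by interval, the changes that passed the test in both knockout lines were all in 1 direction. In Ctrl, 10 of the 40 intervals were called in both lines, where 7.15% of all tested intervals of the table were. All 10 were lower than WT and 0 higher, against 3.2% lower and 3.95% higher over the table. In Paused, 10 of 39 were called (13.9% over the table), 10 lower and 0 higher, against 4.92% and 9.01%. These calls come from limma with a Benjamini-Hochberg adjusted p under 0.05 in each line. The split over all intervals depended on scaling: with DESeq2 size factors 13387 were lower and 7995 higher in Ctrl, and 22543 and 15655 in Paused, while the locus had 15 lower and 0 higher in each table.

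Taken line by line, Smad2_KO1 had 13 called intervals in Ctrl (11.6% over the table), 12 lower and 1 higher (4.52% and 7.1%). It had 16 in Paused (19.4%), all lower (lower 6.56%, higher 12.9%). Smad2_KO2 had 15 in Ctrl (10.7%), 14 lower and 1 higher (4.85% and 5.83%). It had 14 in Paused (19.3%), 11 lower and 3 higher (6.86% and 12.4%). The Paused count for Smad2_KO1 was 10 without WT replicate 1 or without Smad2_KO1 replicate 2 (41479 and 31489 over the table). That for Smad2_KO2 was 8 without its replicate 1 (36290 over the table). Of the higher intervals in single lines, those near 180870362 and in Tmem63a near 180957199 had positive changes in both lines and both tables, and each passed in 1 line per table. The third Paused call, also in Tmem63a (chr1:180965438-180965638), was at a weak interval with 7.68, 11.3 and 14.3 normalized reads in WT, Smad2_KO1 and Smad2_KO2, and it passed in Smad2_KO2 (log2 fold change 0.95, adjusted p = 0.0449, limma). With DESeq2 size factors none of the higher calls in single lines was made.

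The middle of the locus carried the larger changes. The median log2 fold change, averaged over the lines, was -0.43 for the 40 Ctrl intervals and -0.40 for the 39 Paused intervals. All tested intervals had medians of 0.08 and 0.12. Over the whole tables, the change went with signal level. With all tested intervals ranked by mean value into 10 equal bins, the median in Ctrl was 0.23 in the weakest bin and -0.07 in the strongest. In Paused these medians were 0.36 and -0.14. Of the locus intervals, 31 of 40 in Ctrl and 34 of 39 in Paused were below the median of their own bin. Among the 14 Ctrl intervals between the Lefty genes, 5 were lower in both lines and the median was -0.79. The 15 before Lefty2 had 2 lower and a median of -0.17, and the 9 after Lefty1 had 2 lower and a median of -0.29. In Paused, 6 of 15 between the genes, 3 of 10 before Lefty2 and 1 of 11 after Lefty1 were lower in both lines, with medians of -0.65, -0.15 and -0.22. Differences between these stretches were not tested.

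The stretches of 110000 bases on either side of the window are given for scale. In Ctrl, 1 of 31 tested intervals before the window was lower in both lines and 2 were higher, and none of 22 after it was called in both. In Paused, 1 of 28 was lower and 4 were higher before the window, and 0 of 20 were lower and 1 higher after it.

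**Figure D2:**
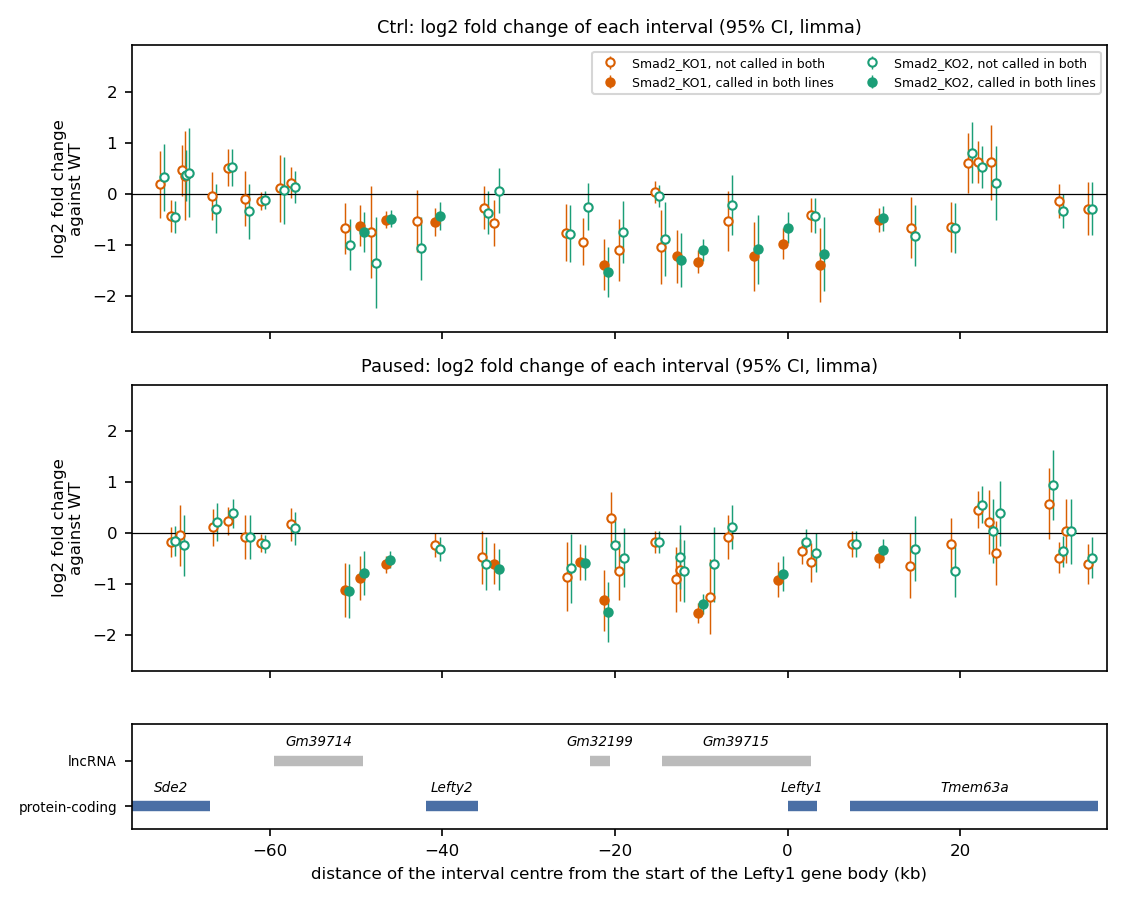
Log2 fold change against WT of each interval (y axis, points with 95% confidence intervals from limma) for Smad2_KO1 and Smad2_KO2 in Ctrl (top) and Paused (middle), against distance from the start of Lefty1 in kilobases (x axis); filled points were called in both lines. All filled points, 10 intervals in Ctrl and 9 in Paused (1 that was called is not drawn), lie below 0. The filled points of an interval lie close together. Open points of some intervals do not, as at 180911499 in Ctrl (-0.93 in Smad2_KO1 and -0.25 in Smad2_KO2).

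The interval 9980 bases before Lefty1, within Gm39715 (chr1:180924842-180925042), changed with the smallest p-values in the locus. In Ctrl it had 359.95, 354.70, 395.36 and 298.72 normalized reads in the WT libraries. The Smad2_KO1 libraries had 133.36, 114.11, 153.68 and 161.72, and the Smad2_KO2 libraries 152.32, 160.18, 155.11 and 184.17. The lowest WT library was thus far above the highest knockout library. Smad2_KO1 stood at 40.0% of the WT mean and Smad2_KO2 at 46.3%. These were log2 fold changes of -1.32 ± 0.109 (SE, adjusted p = 3.5e-12, limma) and -1.10 ± 0.109 (adjusted p = 1.25e-09). By the larger of its p-values in the lines, it ranked 6 of 282089 intervals.

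With INK128 the same element (chr1:180924827-180925027) ranked 1 of 260539 by that measure. Its WT libraries had 478.20, 485.17, 448.82 and 384.06 normalized reads. Those of Smad2_KO1 had 146.33, 147.71, 165.85 and 145.01, and those of Smad2_KO2 had 152.82, 176.98, 170.63 and 180.50. All 8 knockout libraries lay within a narrow band well under WT, at 33.7% and 37.9% of its mean. Log2 fold changes were -1.56 ± 0.096 (SE, adjusted p = 9.59e-15, limma) and -1.39 ± 0.096 (adjusted p = 6.72e-13). With the knockout libraries of each number averaged, 4 against 4, the adjusted p (limma) was 1.26e-07 in Ctrl and 2.45e-08 in Paused. In the authors' deposited table its log2 fold for knockout against WT is -1.18 in Ctrl and -1.45 in Paused, and its p-value ranks 1 among all intervals in both treatments.

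This element took a smaller share of the locus in the knockout lines. It was picked for its change, so its shares are a description, with no test. It held 12.0% ± 1.24 of the locus sum in WT, 6.38% ± 0.705 in Smad2_KO1 and 7.30% ± 0.132 in Smad2_KO2 in Ctrl (SD, n = 4). In Paused it held 12.2% ± 1.27, 5.67% ± 0.298 and 6.13% ± 0.334. WT and knockout libraries did not overlap in either table. A share within a library does not depend on how libraries were scaled. Without this element the rest of the locus held 185.5, 148.2 and 151.4 ppm in Ctrl and 211.6, 168.6 and 175.9 ppm in Paused for WT, Smad2_KO1 and Smad2_KO2, again with no overlap.

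The most accessible interval of the locus lies in no gene body, 4221 bases before Lefty2 (chr1:180888687-180888887). Its WT libraries had 585.33, 542.80, 558.55 and 613.61 normalized reads in Ctrl. The Smad2_KO1 libraries had 370.17, 384.49, 408.57 and 456.28 and those of Smad2_KO2 384.80, 405.91, 384.58 and 467.96. All knockout libraries were below all WT libraries, at 70.4% and 71.4% of the WT mean. Log2 fold changes were -0.51 ± 0.0838 (SE, adjusted p = 3.86e-05, limma) and -0.49 ± 0.0838 (adjusted p = 7.33e-05).

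In Paused the matching interval (chr1:180888651-180888851) had 605.39 to 748.25 normalized reads for WT, 425.01 to 480.71 for Smad2_KO1 and 425.49 to 567.77 for Smad2_KO2. The groups again did not overlap. Log2 fold changes were -0.61 (adjusted p = 2.49e-06, limma) and -0.52 (adjusted p = 2.72e-05). Its share of the locus sum was 19.7% in WT against 18.4% in each knockout line in Ctrl, and 18.7% against 16.9% and 17.3% in Paused. Those shares overlapped between WT and knockout libraries and did not pass the test (p = 0.257 and 0.0571 in Ctrl, 0.0571 and 0.229 in Paused, exact permutation test, two-sided; adjusted 0.0762 to 0.257). The element 10 kb before Lefty1 stood at 0.616 of this interval's value in WT and at 0.347 and 0.397 in the knockout lines in Ctrl. In Paused those ratios were 0.660, 0.337 and 0.357. They are given without a test for the same reason as the shares of that element.

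**Figure D3:**
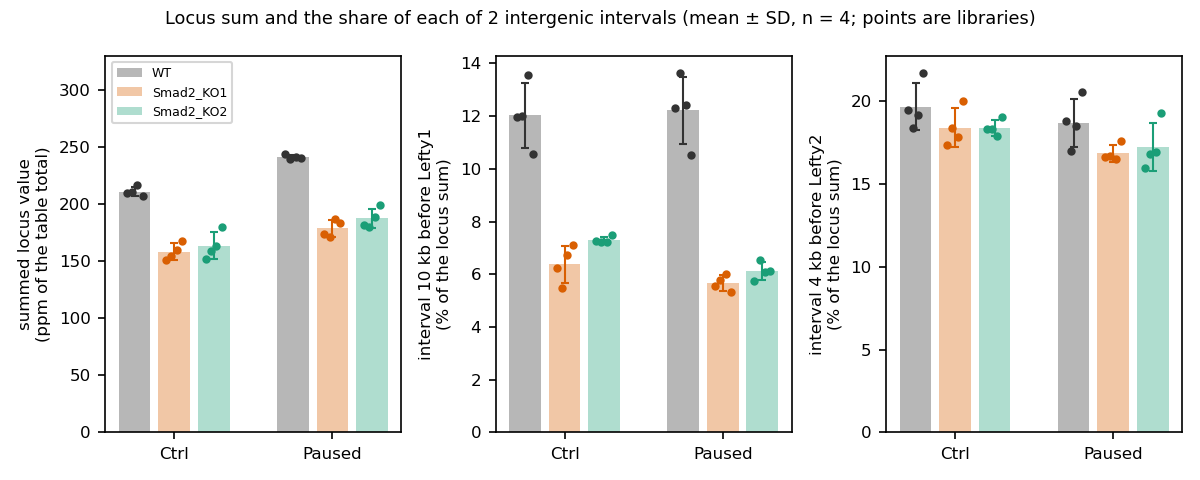
Summed locus value in ppm of the table total (left), the share of the locus sum at the interval about 10 kb before Lefty1 (middle) and at the interval about 4 kb before Lefty2 (right), by line and treatment; bars are means ± SD and points are the 4 libraries. Knockout libraries lie below all WT libraries in the left and middle panels, and overlap WT in the right panel.

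At Lefty1 itself, the strongest Ctrl interval ends 144 bases before the gene body (chr1:180934678-180934878). It had 79.04, 93.15, 81.04 and 77.64 normalized reads in WT. Smad2_KO1 libraries had 43.60, 39.07, 46.85 and 36.96, and Smad2_KO2 libraries 46.10, 59.16, 47.81 and 55.35. No knockout library reached WT. Its log2 fold changes were -0.98 ± 0.150 (SE, adjusted p = 1.26e-05, limma) and -0.66 ± 0.150 (adjusted p = 0.00227).

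Paused had no one-to-one match to it. An interval 726 bases before Lefty1 (chr1:180934096-180934296) had 58.29, 44.01, 60.42 and 59.59 normalized reads for WT, 27.19 to 30.79 for Smad2_KO1 and 27.75 to 35.92 for Smad2_KO2. It was lower in both lines without overlap, by log2 fold changes of -0.91 and -0.79 (adjusted p = 0.000267 and 0.00118, limma). The strongest Paused interval at Lefty1 lies inside the gene (chr1:180936823-180937023), with means of 120.8 ± 13.3 for WT, 93.7 ± 2.68 for Smad2_KO1 and 107.4 ± 10.2 for Smad2_KO2 (SD, n = 4). It passed in Smad2_KO1 (log2 fold change -0.36, adjusted p = 0.0281, limma), whereas Smad2_KO2 gave -0.17 (adjusted p = 0.329).

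A further interval inside Lefty1 was found in both tables (chr1:180937893-180938093 in Ctrl). Its Ctrl means were 50.4, 37.5 and 37.2 in WT, Smad2_KO1 and Smad2_KO2, with log2 fold changes of -0.41 and -0.43 that missed the threshold (adjusted p = 0.101 and 0.0929, limma). The Paused means were 64.3, 43.0 and 50.2, and only the change in Smad2_KO1 passed (log2 fold change -0.57, adjusted p = 0.0257, against -0.38 and 0.144 in Smad2_KO2, limma). Just past the gene, 515 bases after its end, a weak Ctrl interval (chr1:180938916-180939116) averaged 16.2 ± 4.20 normalized reads for WT, 5.71 ± 2.12 for Smad2_KO1 and 6.51 ± 1.32 for Smad2_KO2 (SD over 4 libraries). It was lower in both lines (log2 fold changes -1.38 and -1.18, adjusted p = 0.00784 and 0.0252, limma), but DESeq2 on the recovered reads did not call it. It also lost its call on leaving out Smad2_KO2 replicate 2 or either of WT replicates 2 and 3.

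Lefty2 had 1 interval, inside the gene body (chr1:180894356-180894556 in Ctrl). The WT libraries had 102.54, 109.28, 95.28 and 90.59 normalized reads there. Smad2_KO1 libraries had 59.84, 68.88, 73.09 and 68.15, and Smad2_KO2 libraries 62.13, 80.09, 76.49 and 75.48. Groups did not overlap, and the interval was lower in both lines by log2 fold changes of -0.55 and -0.43 (adjusted p = 0.00405 and 0.0271, limma). The call in both lines was lost on leaving out Smad2_KO2 replicate 1 or either of WT replicates 1 and 2.

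In Paused the matching Lefty2 interval (chr1:180894365-180894565) had means of 118.3 ± 11.3 for WT, 100.3 ± 5.78 for Smad2_KO1 and 95.2 ± 0.220 for Smad2_KO2 (SD, n = 4). The log2 fold changes were -0.23 (95% confidence interval -0.47 to 0.00) and -0.31 (-0.54 to -0.07), with adjusted p = 0.149 and 0.0550 (limma). All but 1 of the 8 knockout libraries were below the lowest WT library. Whether the change at Lefty2 differed between the treatments was not tested, since tests were kept within a table.

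Further weak or moderate elements between the genes were lower too. An interval in Gm32199 (chr1:180913910-180914110) had 24.18 to 71.19 normalized reads in the WT libraries in Ctrl, 15.93 to 18.81 in Smad2_KO1 and 11.07 to 23.66 in Smad2_KO2. WT varied widely here, yet no library overlapped, and the log2 fold changes of -1.38 and -1.53 were among the largest in the window (adjusted p = 0.00012 and 2.58e-05, limma). In Paused (chr1:180913900-180914100) the WT libraries had 21.47 to 51.65, Smad2_KO1 9.97 to 17.10 and Smad2_KO2 6.56 to 24.97, and 1 knockout library lay above the lowest WT library. The Paused log2 fold changes were -1.31 and -1.54 (adjusted p = 0.00156 and 0.000307, limma).

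Within Gm39715, 2 more Ctrl intervals were lower in both lines. The first (chr1:180922319-180922519), 12503 bases before Lefty1, had 27.6, 11.5 and 10.7 normalized reads on average in WT, Smad2_KO1 and Smad2_KO2, with no overlap. The second (chr1:180931237-180931437), 3585 bases before Lefty1, had 21.4, 8.20 and 9.77. Its groups overlapped through WT replicate 2 (9.85), and its call was lost in 6 of the 12 fits that left out a library. Neither of these Ctrl intervals had a one-to-one match in Paused. A Paused interval overlapping the first (chr1:180922197-180922397) passed in Smad2_KO1 (log2 fold change -0.90, adjusted p = 0.0374, limma). It did not pass in Smad2_KO2 (-0.47, adjusted p = 0.299). In Paused, 2 other intervals between the genes were lower in both lines. Means in WT, Smad2_KO1 and Smad2_KO2 were 37.3, 24.7 and 22.5 at chr1:180901184-180901384 (2077 bases after Lefty2), and 60.1, 40.0 and 40.3 at chr1:180911161-180911361. Each kept its call in 8 of 12 fits without a library.

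The Ctrl match of the former (chr1:180901189-180901389) had 27.5, 18.0 and 29.4 normalized reads, and Smad2_KO2 libraries ran from 17.29 to 36.23, overlapping the WT range of 23.0 to 36.67. Its log2 fold changes of -0.57 and 0.07 did not pass (adjusted p = 0.0829 and 0.891, limma).

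Before Lefty2, at the start of Gm39714 (minus strand), the interval that touches the printed promoter (chr1:180885642-180885842) had 48.07, 42.10, 38.33 and 29.12 normalized reads in WT in Ctrl. Smad2_KO1 libraries had 28.21, 29.81, 20.62 and 21.95 and Smad2_KO2 libraries 21.25 to 24.15. A Smad2_KO1 library lay just above the lowest WT library. The log2 fold changes were -0.62 and -0.74 (adjusted p = 0.0319 and 0.01, limma), and the call was lost in 5 of 12 fits without a library. In Paused (chr1:180885625-180885825) WT had 38.41 to 42.10, and the knockout means were 22.4 ± 6.75 and 24.0 ± 5.84 (SD, n = 4), without overlap of libraries (log2 fold changes -0.89 and -0.78, adjusted p = 0.00305 and 0.00878, limma). That call was lost without Smad2_KO2 replicate 1.

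A neighbour in the same noncoding gene (chr1:180883901-180884101) was lower in both lines in Paused, with means of 28.9, 13.5 and 12.7 (log2 fold changes -1.10 and -1.13, adjusted p = 0.00262 and 0.00226, limma). Its Ctrl match had 24.5, 15.1 and 12.0 with no overlap between groups. There Smad2_KO2 passed (log2 fold change -0.99, adjusted p = 0.0061, limma) and Smad2_KO1 did not (-0.68, adjusted p = 0.0662).

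**Figure D4:**
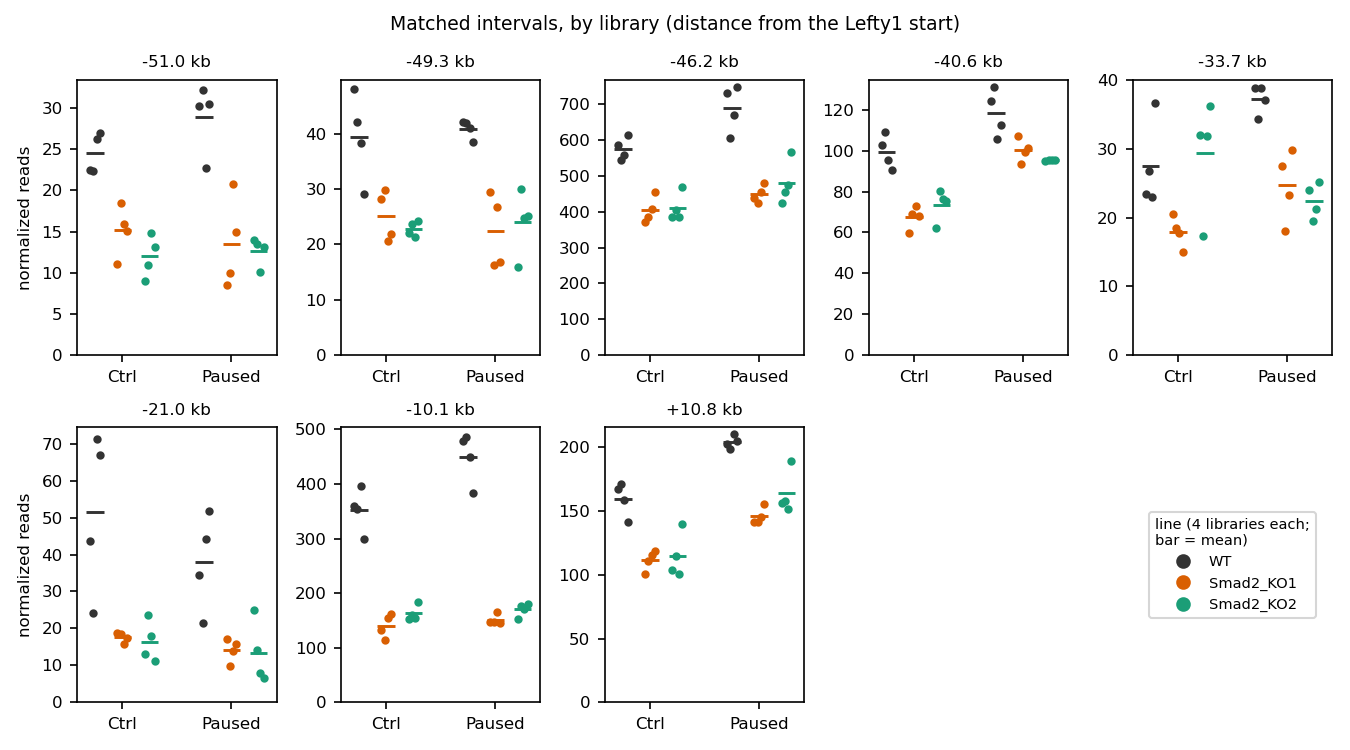
Normalized reads by library (points, y axis) in Ctrl and Paused for 8 matched intervals that were called in both lines in either table or lie in Lefty2, titled by the distance of the centre from the start of Lefty1; bars are means of 4 libraries. The interval at -10.1 kb has the clearest gap, while Ctrl libraries of WT and the knockout lines overlap at -49.3 and -33.7 kb.

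Some other strong intervals missed the threshold, while a strong interval in Tmem63a was lower in both lines in both tables. An intergenic interval before Gm39714 (chr1:180874151-180874351) had means of 313.2, 285.5 and 288.4 in Ctrl and did not pass in either line or table. Another, just before Gm39715 (chr1:180919778-180919978), had 152.6, 157.3 and 148.7. Its averaged log2 fold change in Ctrl was 0.00. Inside Tmem63a, an interval past Lefty1 (chr1:180945752-180945952) had 159.7 ± 13.3 for WT, 111.5 ± 7.81 for Smad2_KO1 and 114.9 ± 17.6 for Smad2_KO2 in Ctrl. It was lower in both lines in Ctrl (log2 fold changes -0.51 and -0.48, adjusted p = 0.00259 and 0.00513, limma) and in Paused (-0.48 and -0.32, adjusted p = 0.000731 and 0.0207), without overlap in either table. Its Paused call was lost on leaving out Smad2_KO2 replicate 1, 2 or 3 (adjusted p up to 0.0734, limma).

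Separation of single libraries followed the same lines. All 8 knockout libraries were below all 4 WT libraries at 10 Ctrl intervals (3.32% over the table) and 9 Paused intervals (4.2%), and above them at 1 (4.16%) and 0 (7.25%). Of the intervals called in both lines, 8 in each table were separated in this way. An averaged log2 fold change of -1 or less was seen at 6 Ctrl and 3 Paused intervals (1.11% and 0.852%). Against the authors' deposited false discovery rate for all 8 knockout libraries, 17 Ctrl intervals were under 0.05 and lower and 1 was higher, and in Paused 18 and 1. The 10 called in both lines were among them in each table. Such rates were common over the tables, and their split there into lower and higher is not given here. A locus interval with a rate of 0.048 ranked 35860 of 299780 by p-value in Ctrl. One with a rate of 0.042 ranked 54851 of 272268 in Paused.

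Between the knockout lines no interval of the locus was called by limma, edgeR or DESeq2, and no interval of either whole table by limma (0%). At an unadjusted p under 0.05, 4 of 40 Ctrl and 2 of 39 Paused intervals differed, against 3.28% and 1.97% over the tables. At the element 10 kb before Lefty1, the log2 difference of Smad2_KO1 from Smad2_KO2 was -0.22 (95% confidence interval -0.44 to -0.00) in Ctrl and -0.17 (-0.36 to 0.02) in Paused. At the strongest interval it was -0.02 (-0.19 to 0.15) and -0.09 (-0.25 to 0.08). The smallest unadjusted p in the locus was 0.0036 (limma), at a Ctrl interval (chr1:180911499-180911699) with means of 17.0 normalized reads in Smad2_KO1 and 27.1 in Smad2_KO2.

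Where intervals could be matched, the change had the same sign with and without the inhibitor at nearly all of them. One-to-one matches, with overlap of at least 50% of each, were found for 24 intervals, leaving 16 Ctrl and 15 Paused intervals without a match. The averaged log2 fold change was negative in both tables for 20, positive in both for 3 and opposite in sign for 1. Of the matched intervals, 5 were called in both lines in both tables, 1 in Ctrl alone (in Lefty2) and 3 in Paused alone. Across tables, which were normalized separately, the median ratio of Paused to Ctrl values was 1.19 in WT and 1.17 in the knockout lines. At the element 10 kb before Lefty1 the ratio was 1.28 in WT and 1.06 in the knockout lines, and at the Lefty2 interval 1.19 and 1.39. These ratios are descriptions, with no test of the treatment.

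**Figure D5:**
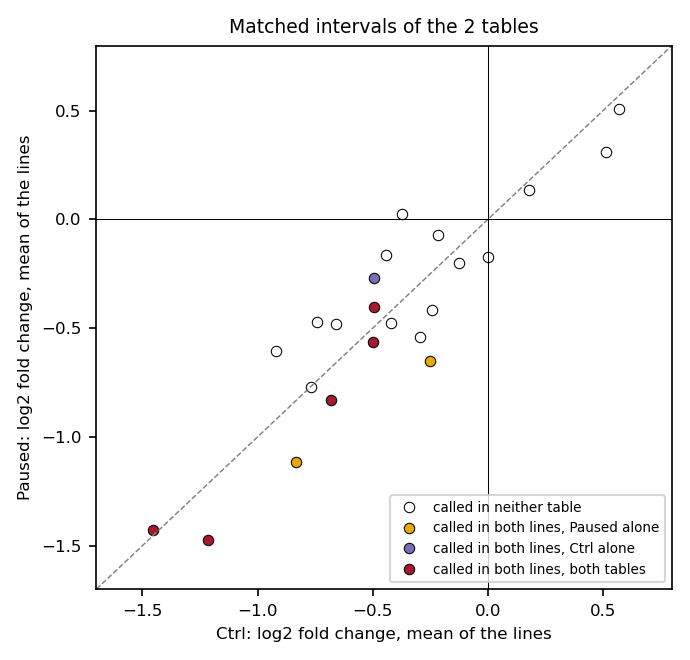
Log2 fold change against WT, averaged over the knockout lines, of 23 of the 24 matched intervals in Ctrl (x axis) and Paused (y axis); colours show where an interval was called in both lines, and the dashed line marks equal change. Most points, 19 of 23, lie in the lower left quadrant, and the 5 called in both tables reach from about -0.4 to -1.5.

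As a list, other genes of the Nodal pathway had shares of called intervals near those of the whole tables. At 28 of the 29 listed ligands, receptors, Smads, partners, inhibitors and targets that had tested intervals, 25 of 661 Ctrl intervals were lower in both lines and 24 higher (3.78% and 3.63%, against 3.2% and 3.95% over the table). The median log2 fold change was 0.06, against 0.08 over the table. In Paused, 36 of 620 were lower and 54 higher (5.81% and 8.71%, against 4.92% and 9.01%), with a median of 0.13 against 0.12. That split depended on scaling: DESeq2 size factors gave 42 lower and 16 higher in Ctrl and 54 and 38 in Paused. In Ctrl, 14 genes had at least 1 lower interval, 10 had at least 1 higher and 6 had both; in Paused these numbers were 15, 15 and 8. Nodal itself had 2 of 11 intervals lower and 0 higher in each table. The other genes given here were chosen after their values were seen, and with so few intervals each their shares say little. Ski, a corepressor of Smads, had 2 of 33 lower in Ctrl and 6 of 31 in Paused, where 1 was higher. Smad7, an inhibitory Smad, had 2 of 20 and 3 of 27 lower and none higher. Eomes, a mesendoderm factor, had 4 of 37 lower and 2 higher in Ctrl and 3 of 34 in each direction in Paused. Smad3, the partner of Smad2, had 2 of 55 lower and 4 higher in Ctrl and 4 of 56 in each direction in Paused. Pcsk6, a convertase that can process Nodal, had 7 of 56 and 13 of 49 intervals higher (2 of 49 lower in Paused). No listed gene was compared with the Lefty locus by a test.

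The intervals elsewhere whose values followed those of the strongest Lefty interval most closely are given as a description over the 12 libraries of a table, which share the WT to knockout step. In Ctrl they were nearest to Magi1 (Pearson r = 0.983), Cd96, Hk1, Vmn1r211 and Macf1. In Paused they were nearest to Ccl25 (r = 0.979), Smim14, Lims1, Cyp7b1 and Smad7, of which Smad7 is also on the pathway list. For the element 10 kb before Lefty1, chosen after its values were seen, they were nearest to Tesk2 (r = 0.981), Rara, Slc1a3, Lrrtm4 and Dach1 in Ctrl and to Eml2 (r = 0.984), Sil1, Gm38423, Ddx18 and Sgms1 in Paused.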

How the data were processed

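Per the submitters' processing notes, the tools were FastQC, Trim Galore, Bowtie2 2.4.1, MACS3 3.0.3 and DiffBind 3.16.0, with build mm10; their settings, and any shift of reads to the insertion site, are not given in the sources used here. The deposited signal values are scaled read counts with a single factor for each library, as the values show: every value up to 100 lay within 0.015 of a whole multiple of a library's step, so whole reads were recovered. This also held for the steps nearest to 1, 0.9988 in Paused Smad2_KO2 replicate 1 and 1.002 in Ctrl Smad2_KO2 replicate 1. The deposited log2 fold and p-value columns belong to the authors' comparison of 8 KO with 4 WT libraries.

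Each table was fitted separately with limma 3.58.1 in R 4.3.3 (eBayes with trend) on log2(value + 1), with line as the only factor over 12 libraries and Benjamini-Hochberg adjustment over all tested intervals. Fold changes on this scale understate those of low intervals. Alternatives were DESeq2 1.42.0 and edgeR 4.0.16 (on the recovered reads), other scalings, no filter, a pseudocount of 0.1, pooled or averaged knockout libraries, a replicate block and leaving out each library. The scripts were tested on simulated data. Given in full are intervals called in both lines, the strongest at each Lefty gene and the strongest outside genes, with their matches in the other table, except 1 matched interval that is not reported here and stays in sums and counts; other intervals named were chosen after their values were seen. The members, lists and tests were chosen with earlier results of these data known. Intervals 201 bases wide are given 1-based. Counting error alone limits intervals with few reads.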

Additional observations from a re-analysis of the deposited data

Results flagged for a closer look

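Of 87 groups of 4 libraries checked for a library far from the rest, 5 held such a library, where chance alone gives 4.35. At the weak Ctrl interval 515 bases after Lefty1, Smad2_KO2 replicate 2 had 4.55 normalized reads, where the other libraries of the group had 7.01 to 7.44. At the element 10 kb before Lefty1, Paused Smad2_KO1 replicate 3 had 165.8, above 145.0 to 147.7 in the others and still far below WT. At the Paused interval 726 bases before Lefty1, WT replicate 2 had 44.01, below 58.29 to 60.42 in the others and above every knockout library. The strongest intergenic interval held 17.63% of the locus sum in Paused Smad2_KO1 replicate 4, against 16.52% to 16.67% in the others. The element 10 kb before Lefty1 held 7.491% of the locus sum in Ctrl Smad2_KO2 replicate 4, against 7.214% to 7.252%.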

How the results depend on the processing

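Every interval described that was called in both lines kept its call under 9 other settings of scaling, filter, pseudocount, samples, block and test, except the Ctrl interval 515 bases after Lefty1 under DESeq2. The number called in both lines was 10 in each table. With the 8 KO libraries as 1 group, 23 were called in Ctrl (20 lower, 3 higher) and 22 in Paused (19 lower, 3 higher). Over the tables, that fit called 49619 of 282089 and 74734 of 260539 intervals. With KO libraries of a number averaged, 18 (17 and 1) and 16 (15 and 1) were called, against 36791 and 51651 over the tables. Neither fit asks each line to pass, and the first counts libraries of both lines as replicates. Under edgeR, 17 were lower in both lines in Ctrl, against 14652 over the table. In limma, leaving out a library gave 8 to 12 called in both lines in Ctrl and 7 to 11 in Paused. Over the tables those fits called 13969 to 21510 and 25212 to 39117. The Paused counts include 9 and 8 without Smad2_KO1 or Smad2_KO2 replicate 2, the pair within sampling noise. Leaving out a library gave 10 to 16 calls in Paused for Smad2_KO1 (31489 to 52761 over the table) and 8 to 14 for Smad2_KO2 (31973 to 52926). With the replicate block, 12 were called in both lines in Ctrl (11 lower, 1 higher) and 11 in Paused (10 and 1), against 22479 and 42322 over the tables. Same-numbered libraries did not deviate together in every pair with WT, so the numbers were not taken as pairs. Between the knockout lines, all same-numbered pairs had a positive correlation of their deviations from the group means (0.008 to 0.187). An uncalled change reversed at 180901189 in Ctrl Smad2_KO2 (0.07 as reported, -0.009 without WT replicate 3, and -0.049 to 0.293 over all fits without a library); the cause was not tested. DESeq2 size factors moved the median log2 fold change of all Paused intervals from 0.12 to 0.02 and that of the locus from -0.40 to -0.50. Matching by any overlap gave 28 pairs in place of 24. At intervals under 30 normalized reads (26 in Ctrl and 20 in Paused), few reads limit what could be called.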
